A study of Mus musculus with 95 samples.

Results

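The transcripts described here are those of the pancreatic lipases and their cofactor: Pnlip, Pnliprp1, Pnliprp2, Clps and Cel. They were taken by gene symbol and make up 5 of the 20638 genes in the authors' count table. RNA-seq was performed on pancreatic islets, the hormone-secreting cell clusters of the pancreas, of mice of the strains that founded the Diversity Outbred population. All the mice were kept on a high-fat, high-sugar diet, and the labels give 45% fat for every library. The labels give neither strain nor sex for a library, so the 95 libraries were handled as 1 set and no groups were compared. Libraries go by the numbers that open their titles. Nothing in the labels says that each library came from its own animal, so the p-values below measure the spread between libraries, and likeness between libraries with nearby numbers may make them too small.

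Dietary fat is digested in the gut by enzymes that the exocrine acinar cells of the pancreas make and secrete into the duct. Pancreatic triglyceride lipase, the product of Pnlip, hydrolyses triglycerides, and needs colipase, the small cofactor encoded by Clps, to hold on to fat droplets coated with bile salts. Pnliprp1 and Pnliprp2 encode proteins related to it: the product of Pnliprp2 also hydrolyses phospholipids and galactolipids, while little lipase activity is known for that of Pnliprp1. Cel encodes bile salt-activated lipase, an enzyme of another family that also hydrolyses cholesteryl esters. Islets lie within acinar tissue, and islets isolated from it can carry acinar cells with them.

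The 3 related lipase genes lie near each other on the plus strand of chromosome 19 (GRCm38). Pnlip (ENSMUSG00000046008) spans 58670365 to 58681786, Pnliprp1 (ENSMUSG00000042179) spans 58728887 to 58744169, and Pnliprp2 (ENSMUSG00000025091) spans 58759723 to 58777533. The gap between Pnlip and Pnliprp1 is 47.1 kb, and that between Pnliprp1 and Pnliprp2 is 15.6 kb. Clps (ENSMUSG00000024225) lies on the minus strand of chromosome 17, from 28558210 to 28560766, and Cel (ENSMUSG00000026818) on the minus strand of chromosome 2, from 28555795 to 28563403. No stretch of 31 bases in the transcripts of these 5 genes occurred in a transcript of another gene of GENCODE release M21 (0% of each gene's 31-base words).

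The 250 bases before the annotated start are shown for the members found in RefSeq's table for GRCm38.p6, 4 of 5, because 3 of these genes lie near each other and all of them moved together across libraries. Each is written 5′ to 3′ on the gene's own strand, and capitals mark a match, on either strand, to any of 4 boxes, with no overlap between matches. CACCTG is a form of the E-box and TGGGAA is the second box read by the acinar complex of PTF1A and RBPJL. Other forms of the E-box were not marked. AAGGTCA is the box of the nuclear receptor NR5A2, and TATAAA is the TATA box. The windows are chr19:58670115-58670364 (plus) for Pnlip, chr19:58728637-58728886 (plus) for Pnliprp1, chr19:58759473-58759722 (plus) for Pnliprp2 and chr2:28563404-28563653 (minus) for Cel.
Pnlip: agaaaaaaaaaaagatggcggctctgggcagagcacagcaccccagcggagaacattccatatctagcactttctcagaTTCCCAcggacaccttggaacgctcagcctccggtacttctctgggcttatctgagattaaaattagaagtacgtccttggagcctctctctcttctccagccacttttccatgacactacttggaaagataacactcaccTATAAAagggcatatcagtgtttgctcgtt
Pnliprp1: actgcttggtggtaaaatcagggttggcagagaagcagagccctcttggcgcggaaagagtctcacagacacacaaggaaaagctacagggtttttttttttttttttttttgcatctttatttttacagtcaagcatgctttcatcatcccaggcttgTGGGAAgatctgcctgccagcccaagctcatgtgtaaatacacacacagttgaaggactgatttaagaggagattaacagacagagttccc
Pnliprp2: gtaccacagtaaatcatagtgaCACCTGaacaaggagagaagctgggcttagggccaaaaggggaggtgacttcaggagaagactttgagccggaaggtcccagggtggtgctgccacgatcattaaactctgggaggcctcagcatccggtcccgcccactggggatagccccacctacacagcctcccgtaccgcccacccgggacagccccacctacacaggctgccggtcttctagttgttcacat
Cel: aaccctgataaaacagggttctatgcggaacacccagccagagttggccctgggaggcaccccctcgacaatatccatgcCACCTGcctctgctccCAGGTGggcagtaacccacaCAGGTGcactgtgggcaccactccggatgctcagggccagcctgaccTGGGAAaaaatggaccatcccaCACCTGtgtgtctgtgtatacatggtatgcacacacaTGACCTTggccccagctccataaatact

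The 4 windows did not share a single arrangement of these boxes. The Cel window held 4 matches to CACCTG, beginning at positions -170, -154, -134 and -65 before the start, with TGGGAA at -87 and AAGGTCA at -28. The Pnlip window held TGGGAA at -171 and TATAAA at -30, the Pnliprp1 window held TGGGAA at -91, and the Pnliprp2 window held CACCTG at -228. Among all 32851 windows of that length in the table, 17.2% held CACCTG, 21.6% held TGGGAA, 4.08% held AAGGTCA and 12.4% held TATAAA. Both CACCTG and TGGGAA stood in 3.91% of them, as in the Cel window. A match describes the letters of the window and shows no binding.

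All 5 transcripts were present in every library, at levels that spanned more than 2 orders of magnitude. The estimated counts were scaled to CPM, counts relative to a common library size, after TMM adjustment, a trimmed-mean scaling between libraries. Total counts ran from 16411809 to 34357253 per library, with a median of 26552738. Together the 5 genes took a median of 1.76% of a library's counts. Their share was lowest in library 25, at 0.0714% (95% Wilson interval 0.0704 to 0.0725%, counting error only), and highest in library 93, at 9.97% (9.96 to 9.98%). The lowest count of any member in any library was 442, for Pnliprp2 in library 25, so counting error was small beside the differences between libraries.

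Pnlip, the main triglyceride lipase, had a median of 5579 CPM, with values from 251 in library 25 to 81387 in library 54. Cel, the bile salt-activated lipase, had a median of 4270 CPM, with values from 176 in library 25 to 60714 in library 54. Pnliprp1 had a median of 3461 CPM, from 127 in library 25 to 44860 in library 69. All 3 thus had their lowest value in the same library.

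Clps, the colipase, had a median of 1391 CPM, from 56.5 in library 25 to 19458 in library 54. Pnliprp2 was the least abundant, with a median of 431 CPM, from 15.3 in library 25 to 4764 in library 69. The highest value of a gene was 312 times its lowest for Pnliprp2, 324 times for Pnlip, 344 times for Cel, 345 times for Clps and 355 times for Pnliprp1. Libraries 54 and 69 therefore shared the 5 highest values between them, and library 25 held all the lowest.

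**Figure D1:**
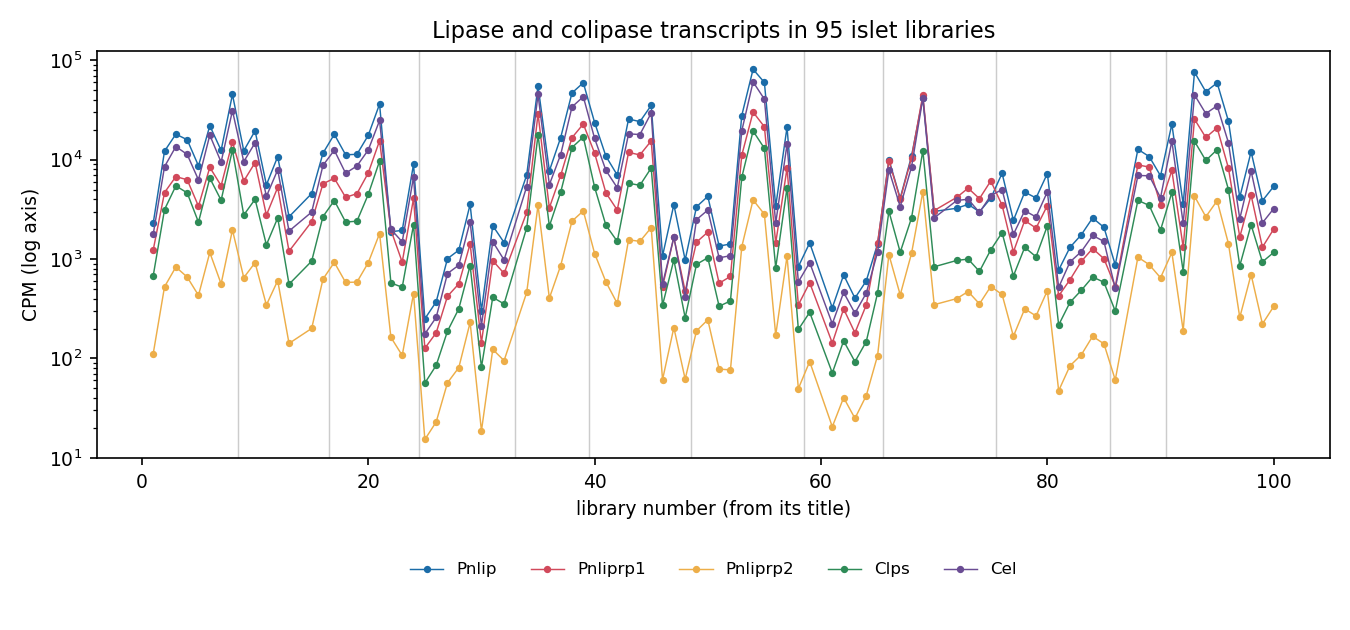
CPM of the 5 genes (log axis) in each of the 95 libraries, in the order of the library numbers; grey lines separate the 12 runs of numbers described in the text. The 5 lines rise and dip together, with Pnlip uppermost in most libraries and Pnliprp2 lowest in all, and the lowest values are those of library 25.

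To compare levels between genes, CPM was divided by the length of each gene's longest coding transcript in GENCODE, which runs from 611 bases for Clps to 2063 for Cel. On this scale Pnlip had the highest median, 3752 CPM per kb, followed by Clps with 2276, Pnliprp1 with 2137.8, Cel with 2070 and Pnliprp2 with 274. Pnlip was above Clps in 95 of 95 libraries, and Cel above Pnliprp2 in 95 of 95. Pnlip was highest of the 5 in 91 libraries and Pnliprp2 lowest in 95. The middle of the order was not settled by the medians. Clps was above Pnliprp1 in 84 of 95 libraries, and Pnliprp1 was above Cel in only 22 of 95, although its median was the higher.

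The spread over libraries was nearly the same for the 5 genes. From the 10th to the 90th percentile, log2 CPM spanned 5.44 for Pnlip, 5.12 for Pnliprp1, 5.12 for Pnliprp2, 5.40 for Clps and 5.78 for Cel, against a median span of 0.92 over the 15841 genes that passed the low-count filter. The biological coefficient of variation estimated by edgeR for each gene was 117% for Pnlip, 113% for Pnliprp1, 114% for Pnliprp2, 117% for Clps and 118% for Cel. It was above 50% for 5 of 5 members, where 24.5% of all tested genes were above that value, and its median over all tested genes was 26.1%.

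The members were next set against other acinar transcripts. An acinar reference was formed as the mean log2 CPM of 11 acinar genes that are not members, among them the digestive proteases Cpa1, Cpb1, Ctrb1, Cela1, Cela2a, Cela3b and Prss2, the ribonuclease Rnase1, and the zymogen granule proteins Zg16 and Sycn. Each of the 15841 genes was fitted on this reference with edgeR's quasi-likelihood test, with Benjamini-Hochberg adjustment over all of them. A slope of 1 means that a gene changed in proportion to the reference. In bulk islets, fewer acinar cells and less of a transcript per acinar cell cannot be told apart.

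All 5 members rose with the reference, as did 14.3% of all tested genes. The slope of Pnlip was 1.00 (SE 0.0126, 95% interval 0.97 to 1.02, edgeR adjusted p = 1.93e-85), that of Clps 1.00 (SE 0.0129, 0.97 to 1.03, adjusted p = 1.52e-84) and that of Cel 1.00 (SE 0.0141, 0.97 to 1.03, adjusted p = 2.78e-81). The slope of Pnliprp2 was 0.97 (SE 0.0161, 0.94 to 1.00, adjusted p = 1.11e-74), and that of Pnliprp1 was 0.96 (SE 0.0223, 0.91 to 1.00, adjusted p = 1.52e-61). The 5 intervals held 1 in this fit. With the run of library numbers added to the model as a factor, the slope was 1.01 for Pnlip, 0.97 for Pnliprp1, 0.99 for Pnliprp2, 0.99 for Clps and 1.02 for Cel. In that fit the interval of Pnliprp1 was 0.939 to 0.999 and no longer held 1, while the other 4 still did. The interval of Pnliprp1 also lay below 1 without libraries 66 to 75 (0.921 to 0.9747), in libraries numbered 50 or lower (0.913 to 0.992) and with DESeq2 (0.920 to 0.998). That of Pnliprp2 lay below 1 in the same settings (0.937 to 0.987, 0.919 to 0.990 and 0.940 to 0.998) and without libraries numbered above 90 (0.926 to 0.995), and that of Clps in libraries numbered above 50 (0.956 to 0.998). In the other alternatives tried, all 5 intervals held 1.

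At an adjusted p under 0.05, 14.1% of all genes fell with the reference. The split over all genes depends on the scaling. With TMM, 2260 genes were called higher and 2240 lower, and with plain library totals 544 were called higher and 11900 lower, with a median slope over all genes of -0.12 in place of -0.0040. The 5 members were called higher under both, with slopes between 0.95 and 1.03 in every alternative tried.

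**Figure D2:**
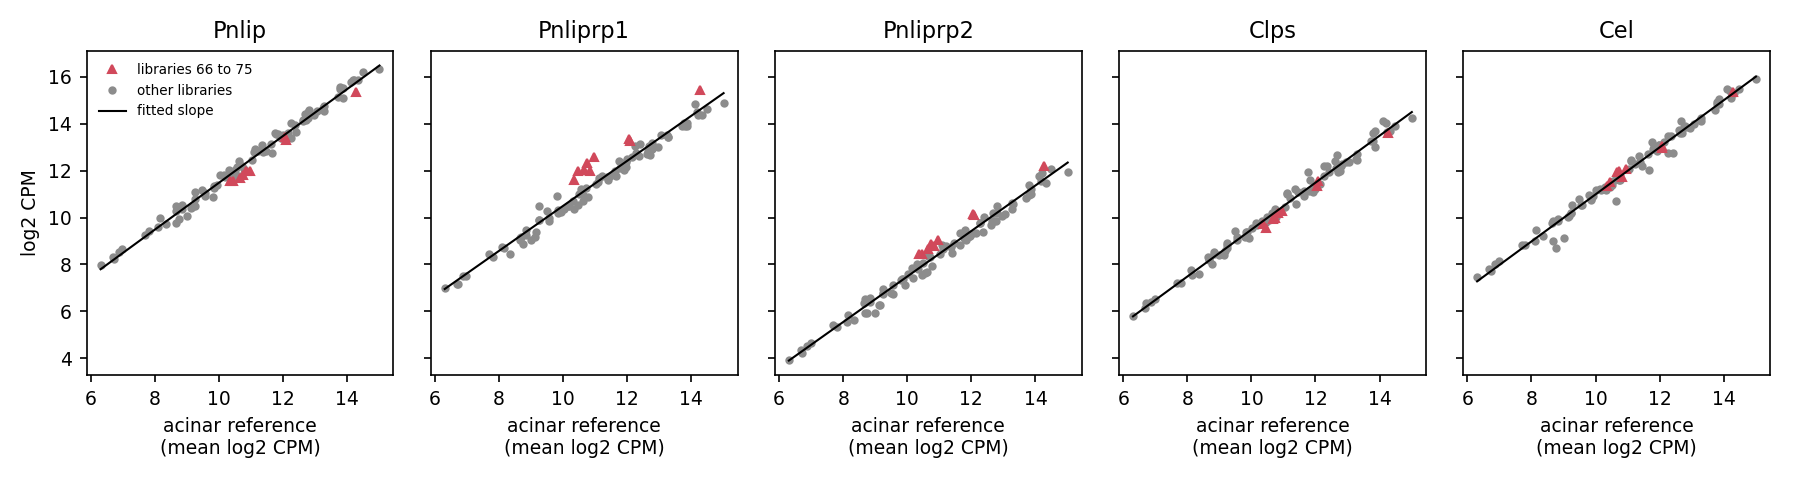
Log2 CPM of each gene against the acinar reference (mean log2 CPM of 11 other acinar genes), 1 point per library; triangles are the 9 libraries numbered 66 to 75, circles the other 86, and the line has the fitted slope through the mean. The points lie close to lines of slope 0.96 to 1.00, and the triangles lie above the line for Pnliprp1 and Pnliprp2 and at or below it for Pnlip.

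With the reference in the model, the coefficient of variation fell to 16.0% for Pnlip, against 117% without it. For Clps it was 16.5% with the reference and 117% without, and for Cel 17.8% and 118%. For Pnliprp2 it was 20.4% with the reference and 114% without. Pnliprp1 kept the most, 27.3% with the reference and 113% without. Over all genes the median was 25.1% with the reference and 26.1% without, so Pnliprp1 alone of the 5 remained above the median gene.

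**Figure D3:**
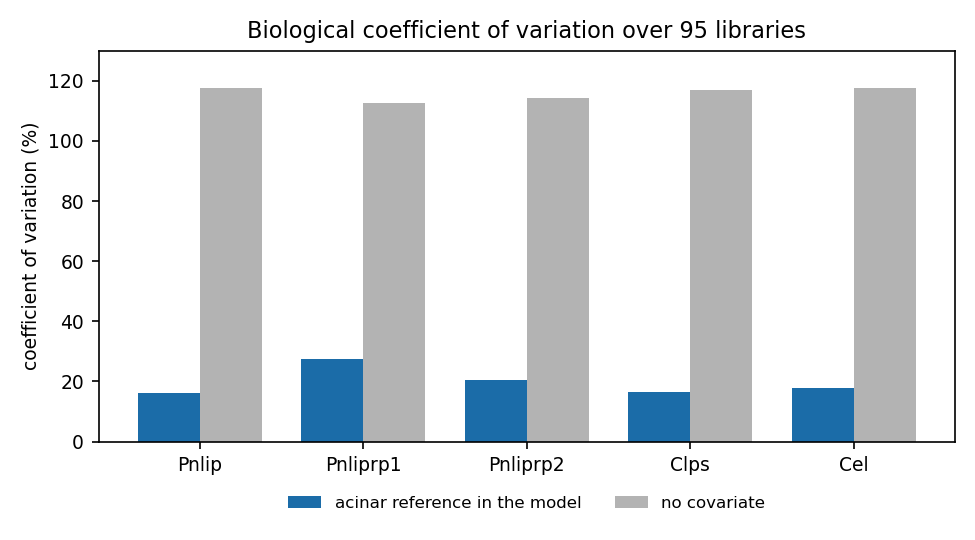
Biological coefficient of variation (%) of each gene over 95 libraries with the acinar reference in the model (blue, left) and with no covariate (grey, right). The blue bars stand at 16.0 to 27.3%, highest for Pnliprp1, and the grey bars at 113 to 118%.

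The members were also correlated with each other over the 95 libraries, which fell into no separate clusters on any of the 5 levels. Among the 10 pairs, Spearman's rho of log2 CPM was lowest for Pnlip with Pnliprp1, at 0.962 (Pearson's r = 0.970), and highest for Pnlip with Clps, the enzyme and its cofactor, at 0.992 (r = 0.995). Clps with Cel and Pnlip with Cel came close to it, at 0.991 each. Within the chromosome 19 cluster, Pnliprp1 and Pnliprp2 had a rho of 0.989 (r = 0.992) and Pnlip and Pnliprp2 one of 0.977 (r = 0.983). The adjusted p was 1e-05 for each pair in two-sided permutation tests with 100000 resamples, the smallest they can give. Without the 2 libraries farthest from the median, r was 0.967 to 0.994. With each run's median subtracted, rho was 0.987 to 0.995, highest for Pnliprp2 with Cel, and for Pnlip with Pnliprp1 it was 0.987. The points share their libraries and hence their acinar content.

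Because the levels moved with the acinar reference, the composition of the set was followed through ratios. Ratios of CPM to Pnlip were described, without a test, over 12 runs of consecutive library numbers whose boundaries earlier work on these data had set by other genes. The runs hold 4 to 10 libraries, and the labels do not say that a run is a group. Over all libraries the median ratio to Pnlip was 0.455 for Pnliprp1, 0.0582 for Pnliprp2, 0.251 for Clps and 0.708 for Cel. These ratios are of CPM, not corrected for length.

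The ratios varied far less than the levels. The share of variance between runs was 87.1% for Pnliprp2 over Pnlip, 80.2% for Pnliprp1 over Pnlip, 60.2% for Clps over Pnlip and 56.2% for Cel over Pnlip. Without libraries 66 to 75 it was 45.2% for Pnliprp1 and 37.0% for Cel, and with blocks of 10 numbers in place of the runs 52.0% and 32.6%. For the log2 levels themselves it was 47.0 to 49.9%, against a median of 61.8% over all genes. From the 10th to the 90th percentile, the log2 ratio spanned 1.42 for Pnliprp1, 0.92 for Pnliprp2, 0.56 for Clps and 0.45 for Cel.

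**Figure D4:**
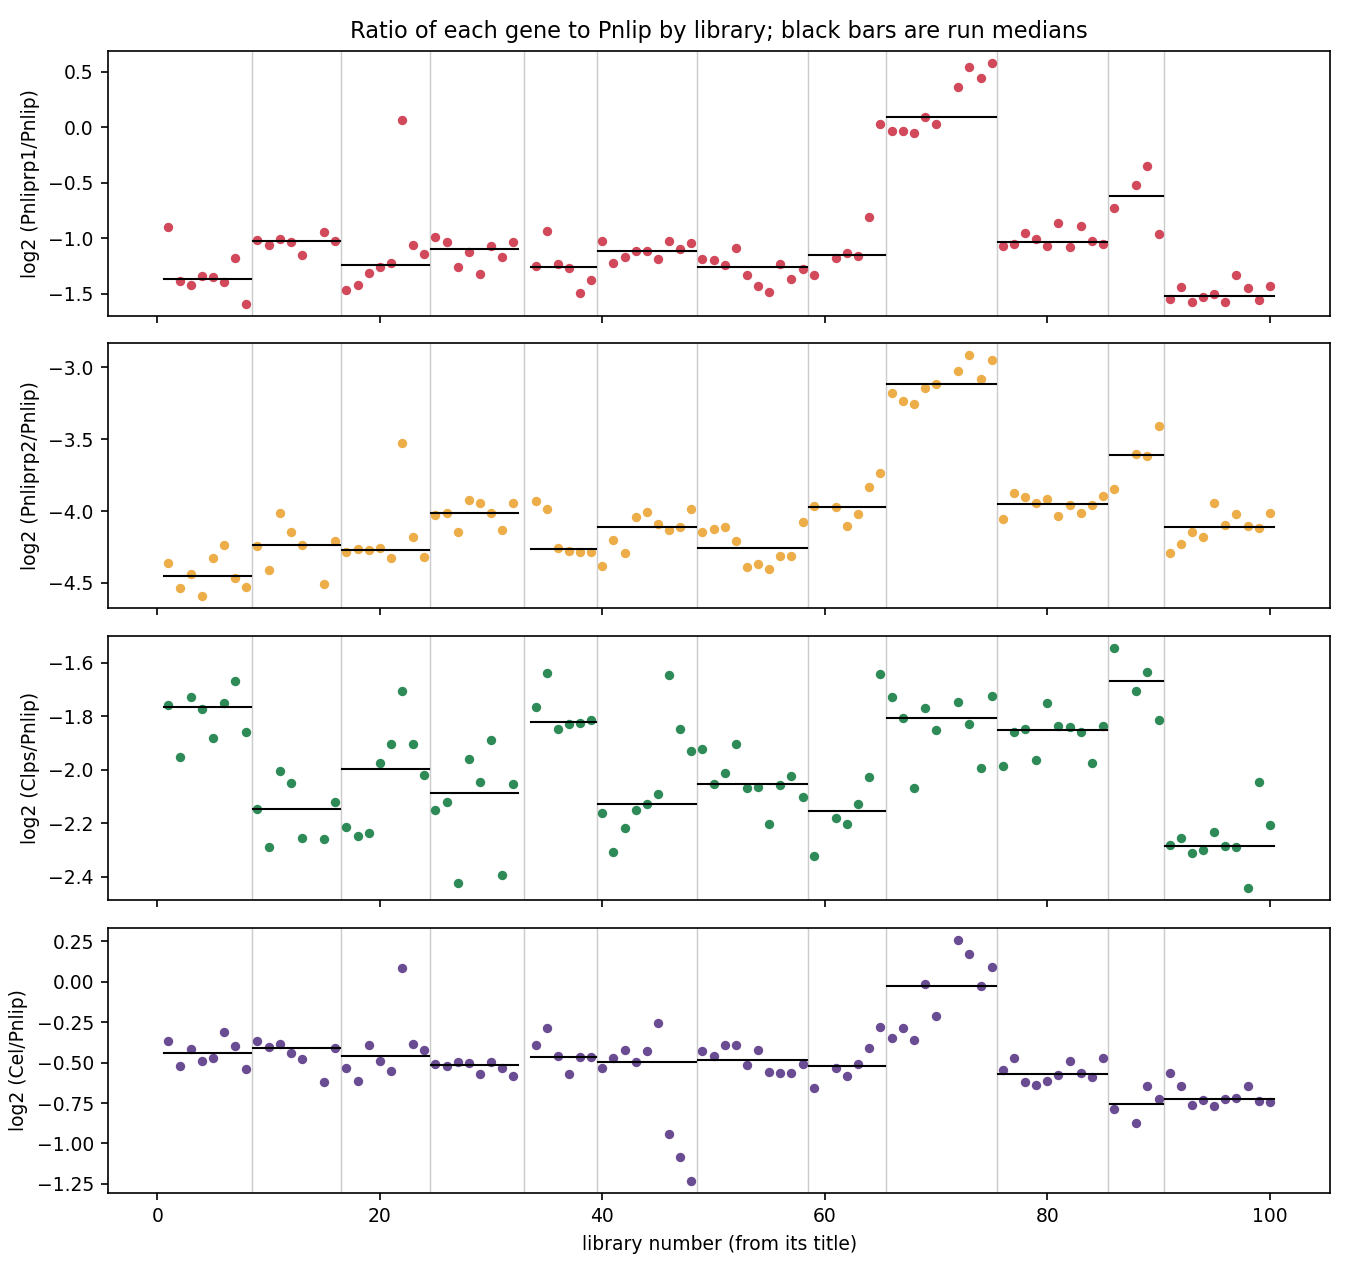
Log2 ratio of the CPM of Pnliprp1, Pnliprp2, Clps and Cel to that of Pnlip in each library, in the order of the library numbers; black bars are the medians of the 12 runs and grey lines separate the runs. Libraries 66 to 75 stand high for Pnliprp1, Pnliprp2 and Cel. Library 22 stands above the rest of its own run for these genes and Clps, and libraries 46 to 48 are the lowest for Cel.

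The related lipases were high relative to Pnlip in libraries 66 to 75. Pnliprp1 stood at 0.974, 0.976, 0.961, 1.07 and 1.02 times Pnlip in libraries 66, 67, 68, 69 and 70, and at 1.29, 1.46, 1.36 and 1.49 times in libraries 72, 73, 74 and 75. The median ratio was 1.07 in these 9 libraries and 0.445 in the other 86. Pnliprp1 exceeded Pnlip in 8 libraries of the 95, and 6 of them belonged to this run. The other two were libraries 22 and 65, at 1.04 and 1.02 times Pnlip. Without those 2, the highest ratio outside the run was 0.785, in library 89.

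Pnliprp2 was high in the same libraries. Its ratio to Pnlip had a median of 0.115 in libraries 66 to 75, from 0.105 to 0.133, and a median of 0.0574 in the other 86, from 0.0415 to 0.0942. The highest value outside the run was that of library 90. The share of all genes that set this run apart in the same way is not given here, so the gap is a description only. Cel had a median ratio to Pnlip of 0.983 in libraries 66 to 75, from 0.778 to 1.20, and of 0.701 in the other 86, from 0.426 to 1.06. Here 5 libraries outside the run reached its lowest value, the highest being library 22.

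Clps differed least. Its ratio to Pnlip was 0.286 in the median in libraries 66 to 75 and 0.246 in the other 86, of which 52 reached the lowest value of the run. Pnlip had a median of 4094 CPM in libraries 66 to 75, from 2993 to 42004, within the range of the other libraries. Library 69, which holds the highest Pnliprp1 and Pnliprp2 levels of the set, belongs to the run.

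Set against the acinar reference instead of Pnlip, Pnliprp1 was high in the run and Pnlip was low. On the log2 scale, Pnliprp1 minus the reference had a median of 1.29 in libraries 66 to 75 and 0.36 in the other 86, of which library 65 alone reached the run's lowest value. Pnliprp2 minus the reference had a median of -1.97 in the run, with a lowest value of -2.06, and -2.60 in the other 86, with a highest value of -2.13 in library 59. Pnlip minus the reference had a median of 1.10 in the run and 1.52 in the other libraries. For Clps the medians were -0.69 in the run and -0.51 elsewhere, and for Cel 1.07 in the run and 1.01 elsewhere.

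The reference is not itself even between these libraries. Among its 11 genes, the median in libraries 66 to 75 minus that in the others ran from -0.99 for Sycn to 0.45 for Ctrb1, beside 0.94 for Pnliprp1, 0.63 for Pnliprp2 and -0.42 for Pnlip. Of 20 further acinar genes, 0 had a higher such difference than Pnliprp1 and 5 had one larger in size, the lowest being -7.26 for Ctrl, a chymotrypsin-like protease. For Pnliprp2, 3 of the 20 had a higher difference and 10 had one larger in size. A difference larger in size than that of Pnlip was found for 13 of the 20, than that of Clps for 15 and than that of Cel for 18. The part of these genes in the differences was not tested.

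**Figure D5:**
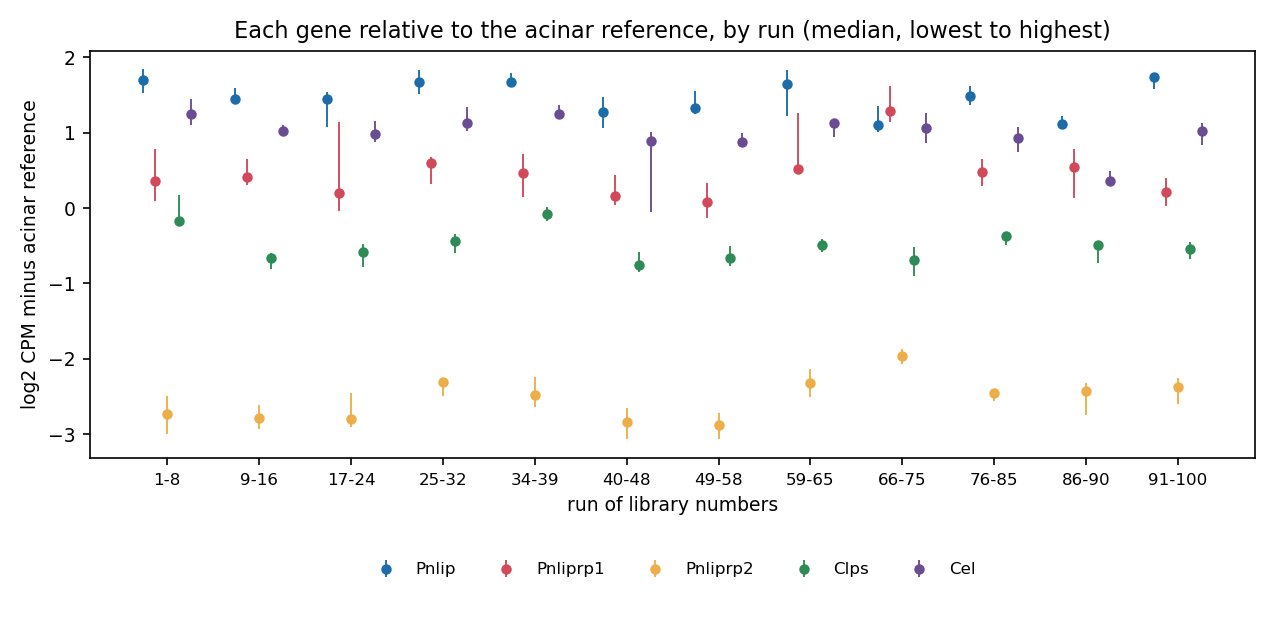
Log2 CPM of each gene minus the acinar reference in the 12 runs of library numbers; points are run medians and bars run from the lowest to the highest library of the run. Pnliprp1 lies above Pnlip in libraries 66 to 75 only, by its median of 1.29 against 1.10, and Cel is lowest in libraries 86 to 90 by its median and in library 48 by single values.

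Libraries 22 and 65 stood apart from their own runs. Library 22 had the lowest total count of all, 16411809, and library 65 was among the 10 libraries with the lowest totals. The part of these totals in the ratios was not tested. In library 22, Pnliprp1 was 1.04, Pnliprp2 0.0867 and Cel 1.06 times Pnlip, against run medians for libraries 17 to 24 of 0.423, 0.0518 and 0.728. In library 65, Pnliprp1 was 1.02, Pnliprp2 0.0751 and Cel 0.824 times Pnlip, against medians for libraries 59 to 65 of 0.451, 0.0637 and 0.696. Clps was 0.306 times Pnlip in library 22 and 0.320 in library 65, against run medians of 0.251 and 0.225. Pnlip was itself low: Pnlip minus the reference, on the log2 scale, was 1.08 and 1.23, against run medians of 1.45 and 1.64. Against the reference, Pnliprp1, Pnliprp2 and Cel were the highest of their run in library 22. In library 65 Pnliprp1 was the highest, at 1.26, but Pnliprp2 (-2.51) and Cel (0.95) were the lowest of the run. Over 15805 genes outside the member and acinar lists, the library most like library 22 was 23 (Pearson's r = 0.811), and the library most like library 65 was 63 (r = 0.615), both from their own runs. Dhrs7c, which had 104 to 198 CPM in libraries 66 to 75, had 0.0585 CPM in library 22 and 0.0834 in library 65.

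Cel parted from the other members in libraries 46, 47 and 48. It was 0.521, 0.472 and 0.426 times Pnlip there, the 3 lowest of all libraries, while the highest ratio of the run from 40 to 48 was 0.838. Pnliprp1 over Pnlip was 0.490, 0.468 and 0.485 in the same libraries, within the range of the rest. Clps over Pnlip was higher than elsewhere in the run, at 0.319, 0.278 and 0.262 against a run median of 0.229. Pnlip minus the reference was 1.07, 1.16 and 1.18, against a run median of 1.27. Pnliprp2 minus the reference was lowest of all libraries in library 46, at -3.07. On the log2 scale Cel minus the acinar reference was 0.13, 0.08 and -0.05 there, against a median of 1.01 over all libraries. These libraries were also the most like each other in the 15805 other genes, with r between 0.743 and 0.809.

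In libraries 86, 88, 89 and 90, Cel was also low, at 0.578, 0.545, 0.641 and 0.604 times Pnlip. Cel minus the reference was 0.32, 0.35, 0.49 and 0.36 in these 4 libraries. Clps was high relative to Pnlip there, at 0.343, 0.307, 0.322 and 0.284, and the first of these was the highest of all libraries. Pnlip was itself low: Pnlip minus the reference had a run median of 1.12, and only libraries 66 to 75 had a lower one, 1.10. Clps minus the reference had a run median of -0.49, near its median of -0.53 over all libraries. Pnliprp1 was 0.606, 0.696, 0.785 and 0.513 times Pnlip, and Pnliprp2 0.0695, 0.0821, 0.0817 and 0.0942, both above their medians over all libraries. Against the reference they were not all above: Pnliprp1 stood at 0.38, 0.71, 0.79 and 0.13, beside a median of 0.38 over all libraries. Pnliprp2 minus the reference was -2.74, -2.38, -2.48 and -2.32, beside a median of -2.51.

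Pnliprp1 and Clps had their lowest run medians relative to Pnlip in libraries 91 to 100, at 0.349 and 0.205. There Cel stood at 0.604 times Pnlip and Pnliprp2 at 0.0578. Pnlip minus the reference had its highest run median in these libraries, 1.75 on the log2 scale. Against the reference, the run medians of Pnliprp1 (0.22) and Clps (-0.54) were not the lowest. That of Pnliprp1 was lowest in libraries 49 to 58, at 0.08. Pnliprp2 was lowest relative to Pnlip in libraries 1 to 8, with a run median of 0.0457. Against the reference, Pnliprp2 stood at -2.73 there and Pnlip at 1.71, and Pnliprp2 was lowest in libraries 49 to 58, at -2.88. Clps minus the reference was highest in libraries 34 to 39, at -0.07, followed by libraries 1 to 8, at -0.17. It was lowest in libraries 40 to 48, at -0.76. The runs thus differed in more than 1 direction, and no single order of runs held for all 4 ratios.

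The levels also differed between runs. Pnlip had run medians of 648 CPM in libraries 59 to 65 and 1120 CPM in libraries 25 to 32, where the acinar reference was lowest, with medians of 7.75 and 8.40 on the log2 scale. In libraries 34 to 39, where the reference had a median of 13.07, Pnlip had a median of 31859 CPM. Single libraries of 1 run still differed widely, as in libraries 49 to 58, where Pnlip ran from 839 to 81387 CPM. The ratio of Pnliprp1 to Pnlip in that run ran only from 0.358 to 0.471.

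Few neighbours of the members had slopes near 1. Between Pnlip and Pnliprp1 lies 1810018F18Rik (58698917 to 58715770), with a median of 3.16 CPM and a slope on the acinar reference of 1.11 (edgeR adjusted p = 1.09e-42). Left of the cluster, 1810007D17Rik had a slope of 1.06 at a median of 0.228 CPM (adjusted p = 6.67e-17), while Gfra1 had a slope of -0.03 and Atrnl1 one of -0.02, neither past the threshold. Right of it, the slopes were 0.02 for Hspa12a (not past the threshold), 0.09 for Eno4 and 0.03 for Shtn1.

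Around Clps, the slope was 0.15 for Tead3, 0.06 for Srpk1 and -0.08 for Lhfpl5, which passed the threshold, and 0.03 for Fkbp5, -0.02 for E230001N04Rik and 0.02 for Slc26a8, which did not. Around Cel, it was 0.76 for Gm13381 at a median of 0.217 CPM and 0.35 for Gbgt1 at 0.436 CPM. Gm13381 overlaps the span of Cel on the other strand, and whether the counting used strand is not given in the sources used here, so its value is uncertain. Gtf3c5 (0.06), Mrps2 (0.03) and Tsc1 (-0.03) also passed, and Ralgds (-0.05) did not. Of these 19 neighbours, 10 were called higher and 2 lower with TMM, where 14.3% of all genes were called higher and 14.1% lower, but 4 higher and 12 lower with plain library totals. The 4 were 1810018F18Rik, 1810007D17Rik, Gm13381 and Gbgt1.

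Outside the set, the transcripts most like the members over the 95 libraries were mostly secreted acinar products from the reference, compared by Spearman's rho of log2 CPM as a description. For Pnlip they were Slc39a5 (0.991), Cela1 (0.991) and Cpa1 (0.990). For Pnliprp1 they were Prss2 (0.986), Erp27 (0.986) and Rnase1 (0.984), and for Pnliprp2 Prss2 (0.991), Rnase1 (0.990) and Cela3b (0.990). Clps was most like 2210010C04Rik (0.993), Zg16 (0.991) and Cela1 (0.991), and Cel most like 2210010C04Rik (0.994), Cpa1 (0.989) and Gp2 (0.989), the zymogen granule membrane glycoprotein. Pnliprp1 and Pnliprp2 thus shared Prss2 and Rnase1 as nearest genes. Other pairs shared nearest genes too: Pnlip and Clps shared Cela1, Pnlip and Cel shared Cpa1, and Clps and Cel shared 2210010C04Rik.

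Other acinar genes outside the reference also rose with it, but in the median kept more variation than the members. Of 20 further secreted or granule genes, 20 rose with it, under TMM and plain totals alike, with a median slope of 1.03 against -0.0040 over all genes. Their median coefficient of variation with the reference in the model was 50.0%, beside 17.8% for the members, and it was 187% for Cela3a, 141% for Amy2a3 and 113% for Ctrc. Gp2 (23.2%), Cuzd1 (24.3%) and Try4 (25.7%) kept less than Pnliprp1 (27.3%). The median over the 11 genes of the reference itself was 15.8%. Among the 20 further genes, Pla2g1b, the secreted phospholipase, had a median of 108 CPM and a slope of 1.06. The most abundant was Amy2a3, an amylase gene, with a median of 4821 CPM and the lowest slope, 0.83, and Cela3a had the highest, 1.70. Members of the amylase and trypsinogen families are near-identical copies, so their values are uncertain. Of 6 acinar regulators, 6 rose, with a median slope of 0.83. Ptf1a, the DNA-binding subunit of the acinar complex named above, had a slope of 1.02 at a median of 2.20 CPM, and Bhlha15, the most abundant at 70.1 CPM, had the lowest, 0.20.

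Lipases outside the acinar cell had slopes far below those of the members. Of 6 members of the wider lipase family, 3 passed the filter, and 0 of these had a slope past the threshold by edgeR's quasi-likelihood test or by DESeq2, 0 also at an unadjusted p under 0.05, both with TMM factors. Lpl, lipoprotein lipase, was the most abundant, with a median of 109 CPM and the lowest slope, -0.05 (edgeR adjusted p = 0.183), and Lipg had the highest, 0.13 (adjusted p = 0.373). With plain library totals Lpl fell, with a slope of -0.19 (edgeR adjusted p = 9.6e-07). Of 8 lipases of intracellular fat, 2 rose with the reference, Mgll with a slope of 0.06 (adjusted p = 0.0121) and Ces1d with 0.34 (adjusted p = 3.34e-06), and 0 fell. Pnpla2, adipose triglyceride lipase, was the most abundant of these, at 36.9 CPM, with a slope of 0.02, and Daglb had the lowest, -0.01, neither past the threshold. With plain library totals 1 of the 8 rose and 4 fell, the slope of Mgll being -0.05, that of Ces1d 0.26 and that of Pnpla2 -0.10, beside the median of -0.12 over all genes.

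Markers of the other cell types were checked beside these values. Of 8 duct genes, 5 rose and 1 fell with TMM. Tff2 had the highest slope, 1.01, Krt19 the lowest, -0.10 (not past the threshold), and Krt7, the most abundant at 186 CPM, fell with -0.07. Muc1 (0.74), Cftr (0.40), Spp1 (0.36) and Sox9 (0.34) also rose. With plain library totals 5 duct genes rose and 3 fell. Of 8 endocrine hormone genes, 1 rose and 6 fell with plain library totals, and 1 rose and 3 fell with TMM. Ins2, one of the insulin genes, was the most abundant at 112956 CPM and fell with -0.05 (edgeR adjusted p = 0.0487, and 0.0502 with DESeq2's size factors), Ppy had the lowest slope, -0.14, and Ghrl the highest, 0.35. Of 7 beta cell genes, 2 fell, Ins2 and Iapp, and Mafa had the highest slope, 0.03 (not past the threshold).

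Of 3 endothelial genes 1 fell, Kdr, with -0.07, and Plvap, the most abundant at 173 CPM, had -0.02. The alpha, delta, macrophage, lymphocyte and fibroblast lists, with 3, 2, 5, 4 and 4 genes, had 0 past the threshold in either direction with TMM, by edgeR's quasi-likelihood test and by DESeq2, and 1 gene at an unadjusted p under 0.05, in the fibroblast list. The most abundant of each were Gcg, Sst, C1qa, Cd79a and Sparc, and the slopes of these lists lay between -0.07 (Col1a1) and 0.15 (Pdgfra). Of 4 adipocyte genes only Fabp4 passed the filter, with a slope of -0.10 (edgeR adjusted p = 0.142). With plain library totals all 7 beta cell genes, 3 alpha cell genes and 3 endothelial genes fell, with list medians of -0.14, -0.17 and -0.14 beside the -0.12 over all genes. Under that scaling C1qa of the macrophage list, Sparc and Col1a1 of the fibroblast list, and Fabp4 fell too. The part of these cell types in the members' levels was not tested.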

How the data were processed

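Per the labels, RNA was isolated with a column kit and a DNase step, ERCC controls were added, and poly(A)-selected libraries were made. The authors deposited estimated counts per gene without normalization, 67.7% of them whole to within 1e-6, and a table of variance-stabilised values on a scale close to log2. The submitters' processing notes name GRCm38 and DESeq2. The aligner, the counter and its use of strand are not given in the sources used here.

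The estimated counts were rounded. Genes with 1 CPM or more in at least 10 libraries were kept (15841 of 20638), and library sizes were adjusted with edgeR 4.0.16 (R 4.3.3) by TMM, with factors from 0.460 to 1.29. Log2 CPM used a prior count of 2, and log2 ratios are differences of these. Because acinar transcripts take up much of some libraries, TMM raises CPM there relative to plain totals. Dispersions and slopes came from edgeR's quasi-likelihood fit, with Benjamini-Hochberg adjustment over the kept genes, called at an adjusted p under 0.05. DESeq2 1.42.0 gave alternative size factors, dispersions and tests. Steps were tested on simulated counts. Not every gene of the acinar reference is reported here.

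The members, lists, runs and the rule for named genes were chosen with earlier results of these data known. The rule names, for each member, the 3 genes most alike by level and the 3 at each end by ratio to the reference, the neighbours, and in each list the genes with the highest median CPM and the highest and lowest slope. Libraries 22, 65, 46 to 48 and 86 to 90, as well as Dhrs7c, were singled out after their values were seen. Promoter sequences are RefSeq's for GRCm38.p6, and coordinates of genes are from the authors' table. No protein sequence was used.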

Additional observations from a re-analysis of the deposited data

How the results depend on the processing

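No paired analysis was possible because the labels give no groups and hence no replicate numbers shared between groups. Of 410 values recomputed under the alternatives, 399 kept their direction and call or stayed within the set limits, 11 moved and 0 reversed. The members' slopes ran from 0.95 to 1.03, their coefficients of variation from 92.5 to 132%, and rho between members from 0.933 to 0.996. The values that moved were counts over all genes and shares of variance between runs. Genes called higher with the acinar reference numbered 2260, but 544 with plain library totals, 1362 without the 19 libraries with over 25% acinar counts and 1344 in libraries numbered above 50. Genes called lower numbered 2240, but 11900, 1011 and 1090 under the same settings. Genes with a coefficient above 50% numbered 3879, but 7713 with no low-count filter, where more genes were counted. The share of variance between runs for Pnliprp1 over Pnlip was 80.2%, but 52.0% with blocks of 10 numbers in place of the runs and 45.2% without libraries 66 to 75. For Cel over Pnlip it was 56.2%, but 32.6% with blocks of 10 and 37.0% without libraries 66 to 75. Leaving out libraries 66 to 75, and libraries 22 and 65, were alternatives chosen after seeing the data, and the second moved none of the values. Except where noted, the cause was not tested. Counting error was not a limit for the members, whose lowest count was 442.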

Other observations

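Genes whose log2 CPM followed, over the 95 libraries, a member's log2 ratio to the acinar reference are given as a description by Spearman's rho. They were picked from all kept genes as the extremes, and libraries of nearby numbers share much else. For Pnliprp1 the highest were Pappa2 (0.714), Cngb3 (0.685) and Pcdhgc3 (0.684), and the lowest Gm12918 (-0.666), Ephb6 (-0.660) and Ccdc114 (-0.659). For Pnliprp2 the highest were AU021092 (0.711), Pdia4 (0.704) and Dcps (0.704), and the lowest Mcoln3 (-0.788), Suds3 (-0.782) and Tmem94 (-0.779). Pdia4 encodes a protein disulfide isomerase of the endoplasmic reticulum.

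For Pnlip the highest were Gm13443 (0.782), Crnkl1 (0.711) and Rbbp8 (0.699), and the lowest Gm10231 (-0.806), Lrrtm4 (-0.776) and AU040320 (-0.731). For Clps the highest were Gm10557 (0.814), Wdr49 (0.779) and Afg3l2 (0.761), and the lowest Efna5 (-0.777), Col8a2 (-0.755) and Ramp1 (-0.745). For Cel the highest were Rassf8 (0.701), Lyplal1 (0.695) and Suox (0.670), and the lowest Gm26947 (-0.697), Atp8b5 (-0.667) and Gm4524 (-0.667). No gene appeared in the lists of more than 1 member.

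Within libraries 66 to 75, the ratios of Pnliprp1 and Pnliprp2 to Pnlip were higher in each of libraries 72 to 75 than in any of libraries 66 to 70, a split noticed after the values were seen. The ratios of Cel and Clps overlapped between these stretches. Cel was 1.20, 1.13, 0.983 and 1.06 times Pnlip in libraries 72, 73, 74 and 75, and 0.786, 0.822, 0.778, 0.992 and 0.863 times in libraries 66, 67, 68, 69 and 70. The labels do not say what separates them.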
